A study of Homo sapiens with 12 samples.

Results

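The genes described here are the 68 whose level was at least 75% above control with each of the MESH1 siRNAs in RCC4 cells, out of 23710 genes in the count files. They were chosen on CPM, the reads of a gene per 1000000 reads in genes. A gene had to reach a mean of 2 CPM over the 12 libraries, and the ratio of the siMESH1 mean to the siNT mean, with 0.5 CPM added to each, had to exceed 1 by at least 75% in each experiment. Symbols with 13 prefixes that mark large families (histones, ETV factors, solute carriers, collagens, integrins, kinesins, ciliary IFT and BBS genes, ribosomal proteins and NADH dehydrogenase subunits) were left out, which removed ETV1, HIST1H2BD, HIST1H2BK, SLC40A1 and SLC44A5. Of the 11272 genes that could be members, 2108 (18.7%) passed the ratio with siMESH1#1 and 133 (1.18%) with siMESH1#2. Because the ratios chose the members, their changes are given below as a description, with no test.

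MESH1, encoded by HDDC3, is the human relative of the bacterial enzymes that break down the alarmone ppGpp, and it acts in human cells as a phosphatase of NADPH. In bacteria short of nutrients, build-up of this alarmone starts the stringent response, in which growth genes are shut down and stress genes are turned on. MESH1 was lowered with a pair of siRNAs that differ in sequence. Any siRNA can also act on other transcripts through the bases of its seed.

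RCC4 is an established line of clear cell renal carcinoma that lacks the tumour suppressor VHL, and all groups are this line with no other allele changed. Cells were collected 72 h after transfection with 40 pmol of siRNA. In experiment 1, 3 libraries of cells with siMESH1#1 were compared with 3 of cells with a non-targeting siRNA (siNT#1), and in experiment 2, 3 libraries with siMESH1#2 with 3 of their own non-targeting control (siNT#2). The 2 experiments share no library. Replicates are labelled as biological, and all come from 1 cell line.

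The target sites of the siRNAs in HDDC3 are shown because they differ in sequence and in place. Letters are those of the transcript, 5′ to 3′, and capitals mark the 7 bases that pair with positions 2 to 8 of the guide strand.
siMESH1#1 site: gggaatcactgACATTGTg
siMESH1#2 site: ctgaaggtctcctGCTAACTa
The first site lies in coding sequence, in exon 2, at chr15:90932064-90932082, and the second in the 3′UTR, in exon 4, at chr15:90931109-90931129, both on the minus strand (GENCODE 29 on GRCh38). Of the 10 annotated HDDC3 transcripts, 9 hold the first site and 6 the second.

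HDDC3 itself was measured first. Its mean was 8.20 ± 0.903 CPM in the siNT#1 libraries and 0.150 ± 0.152 CPM in those of siMESH1#1 (SD, n = 3 each). The log2 fold change was -5.56 with an SE of 0.823 (Benjamini-Hochberg adjusted p = 0.00174 by the quasi-likelihood test of edgeR). In experiment 2 the means were 13.3 ± 0.616 CPM and 1.38 ± 0.297 CPM, and the log2 fold change was -3.25 with an SE of 0.129 (edgeR adjusted p = 2.51e-12). With siMESH1#1 the log2 fold change of HDDC3 was -3.84 after a correction for the GC content of transcripts, -4.93 without siMESH1#1 replicate 2 and -6.66 without siMESH1#1 replicate 3, each still called lower. In uncorrected CPM the level left was 1.84% of control with siMESH1#1 and 10.4% with siMESH1#2. The first rests on 5, 0 and 11 reads in the siMESH1#1 libraries. After GC correction the log2 fold changes were nearer each other, at -3.84 and -3.19.

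The libraries held 34063155 to 49134129 reads in genes in experiment 1 and 24787804 to 31651125 in experiment 2. Libraries of siMESH1#1 stood apart from all others in how their reads depended on base composition. Genes were split by GC content into 10 classes of equal size. In the class with the lowest GC content, the median log2 ratio to siNT#1 was 0.78, 1.01 and 0.56 in the 3 siMESH1#1 libraries, and in the class with the highest it was -2.85, -3.39 and -2.19. In the 3 siMESH1#2 libraries the corresponding values lay from 0.093 to 0.13 and from -0.097 to -0.087. Spread between replicates was also wider in the fit of experiment 1, with a biological coefficient of variation of 0.299 against 0.0490. That width came from siMESH1#1. The median SD per gene of log2 CPM (0.5 CPM added) was 0.256 with siMESH1#1 and 0.0733 with siNT#1. In experiment 2 it was 0.0861 with siNT#2 and 0.0487 with siMESH1#2. Of 8 markers of a renal carcinoma line, 7 had means of 2 CPM or more in every group, and LRP2 was at 0 in all. Together they summed to 5023 to 5179 CPM with siNT#1, 4519 to 5158 CPM with siMESH1#1, 8880 to 9307 CPM with siNT#2 and 8404 to 8558 CPM with siMESH1#2, most of it VIM. With siMESH1#1 the means of 6 of the 7 were below siNT#1, among them KRT18 (84.7 and 2.64 CPM), KRT8 (99.3 and 10.9), CA9 (33.5 and 3.56) and PAX8 (185 and 54.4), while CDH2 was above (589 and 1518). With siMESH1#2 KRT18 stood at 66.0 CPM against 83.8, KRT8 at 200.2 against 227, CA9 at 200.01 against 188, PAX8 at 417 against 444 and CDH2 at 452 against 309. Endothelial markers summed to at most 0.158 CPM and fibroblast markers to at most 0.891 CPM in any library, and of the leukocyte markers only CD68 was above 1 CPM, with means of 59.9 CPM with siNT#1, 3.37 CPM with siMESH1#1, 106 CPM with siNT#2 and 140 CPM with siMESH1#2. The part of these marker levels in the members' values was not tested. In such bulk RNA, a change in the make-up of the culture and a change of RNA per cell cannot be told apart.

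The 68 members stood a median of 3.02 times above siNT#1 with siMESH1#1 (range 1.76 to 40.9) and 1.96 times above siNT#2 with siMESH1#2 (1.752 to 5.47). The median over all genes that could be members was 0.824 and 0.998. All 68 were called higher by edgeR in both experiments, where 36.9% and 26.6% of all tested genes were called higher, and in all 68 the 3 siMESH1 libraries lay above the 3 siNT libraries, as they did for 34.9% and 30.6% of genes that could be members. The rule used these same contrasts, so nothing is read from those counts. Together the members took 0.479% to 0.507% of all reads in genes in siNT#1 libraries, and siMESH1#1 libraries gave them 1.21% to 1.40%. The share in experiment 2 was 0.439% to 0.464% under siNT#2, with 0.830% to 0.994% under siMESH1#2. The groups do not overlap in either experiment.

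The ratio was larger with siMESH1#1 for 61 members and with siMESH1#2 for 7 (SPARC, INPP5A, TP53INP1, CXCL5, ID2, ONECUT2 and NEAT1). That split depends on the scaling. By the edgeR log2 fold changes, which use TMM factors, 65 were larger with siMESH1#1 and 3 with siMESH1#2 (INPP5A, TP53INP1 and CXCL5, the last at 1.32 and 1.33), and after GC correction 42 were larger with siMESH1#1 and 25 with siMESH1#2. In 26 members both ratios were at least 2, and in 3 (SCG2, BTG2 and DESI2) both were at least 3. At the threshold, the smaller ratio was 1.752 for WASF1, 1.754 for MAPK6 and 1.756 for ID2, just inside, and 1.747 for HBP1, 1.739 for PTGFR and 1.738 for TTC3, just outside. Across the 68 genes the 2 log2 ratios had a Pearson r of 0.528, which was 0.266 without SCG2. Genes are not independent replicates, and both ratios were bounded below by the rule.

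**Figure D1:**
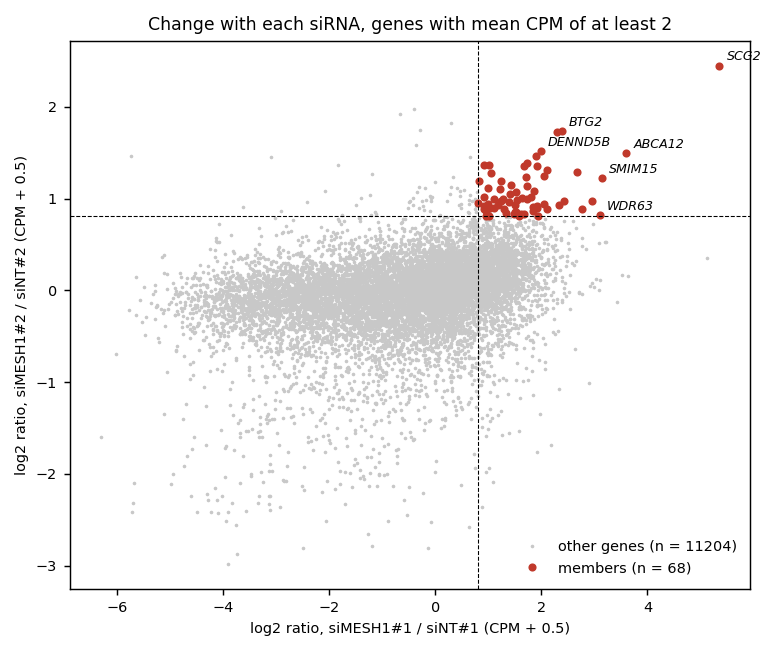
Each point is 1 of the 11272 genes with a mean of at least 2 CPM that the prefix rule kept, with the log2 ratio of siMESH1#1 to siNT#1 on the x axis and of siMESH1#2 to siNT#2 on the y axis. Dashed lines mark the threshold of 75% above control, a log2 ratio of 0.81, and the 68 members (red) fill the upper right corner by construction, with SCG2 at 40.9 and 5.47 times its controls.

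SCG2 had the largest ratio with both siRNAs, with 0.5 CPM added. By the edgeR log2 fold change it was still first with siMESH1#1 (5.69), but with siMESH1#2 it came after PLAG1 (2.52 ± 0.0709 and 2.78 ± 0.417, SE), which rests on few reads. SCG2 encodes secretogranin II, a granin of dense-core secretory vesicles that is cut into neuropeptides such as secretoneurin, and it lies at chr2:223596940-223602503 on the minus strand (GRCh38). With siNT#1 it was at 9.26, 11.2 and 10.5 CPM and with siMESH1#1 at 460, 428 and 440 CPM. In experiment 2 the siNT#2 libraries held 9.83, 10.0 and 11.6 CPM and the siMESH1#2 libraries 59.8, 60.6 and 58.4 CPM. The 6 control libraries thus sat at one level in both experiments, every siMESH1 library was above them, and the siMESH1#1 libraries were well above those of siMESH1#2. These values rest on 249 to 455 reads in a control library and on 1742 to 19393 in a siMESH1 library. After correction for GC content the log2 fold change of SCG2 was 4.96 and 2.47.

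The 5 neuronal or neuroendocrine markers chosen (CHGA, SYP, SNAP25, ELAVL3 and ELAVL4) were at far lower levels than SCG2. This does not hold for all genes of prohormone processing. PCSK1N was at 41.6 CPM with siNT#2, where SCG2 was at 10.5 CPM, and at 0.114 CPM with siNT#1. CHGA, the granin that marks those cells, was at 0 in every group except siNT#2, where its mean was 0.0119 CPM, and ELAVL4 was at 0 in all. The 5 neuronal or neuroendocrine markers together summed to 1.88 to 2.42 CPM with siNT#1 and 1.72 to 7.06 CPM with siMESH1#1, and to 1.46 to 2.14 CPM with siNT#2 and 3.43 to 4.13 CPM with siMESH1#2, almost all of it from SYP and SNAP25. SYP, a synaptic vesicle protein, had means of 1.34 CPM with siNT#1 and 2.61 CPM with siMESH1#1, and of 1.23 CPM with siNT#2 and 2.93 CPM with siMESH1#2. Their part in the SCG2 values was not tested. Of a list of 23 granins and genes of prohormone processing and vesicle release, 14 were tested with siMESH1#1 (6 rose and 5 fell) and 15 with siMESH1#2 (5 rose and 1 fell, 7 and 3 with GC correction, 4 and 0 with DESeq2), SCG2 included. Of all tested genes, 36.9% rose and 37.2% fell with siMESH1#1 and 26.6% rose and 26.7% fell with siMESH1#2, and each list count below is to be read against these shares. The median log2 fold change of the list was -0.035 with siMESH1#1, where it was 0.55 after GC correction, and 0.19 with siMESH1#2, against -0.047 and 0.0053 over all genes tested. CHGB, the sister granin, was at 0.692 ± 0.0664 CPM under siNT#1 and rose to 5.06 ± 1.82 CPM under siMESH1#1, a log2 fold change of 3.11 with an SE of 0.302 (edgeR adjusted p = 0.000502). With siMESH1#2 it went from 0.284 ± 0.0631 to 0.562 ± 0.123 CPM (0.98 ± 0.344, edgeR adjusted p = 0.0234), a call that was lost with DESeq2 and without replicate 1 or 2 of either group, where the log2 fold change was 0.83 to 0.95. Further list genes are named after their values were seen. With siMESH1#1 SCG5 fell from 39.0 ± 6.44 to 13.3 ± 1.62 CPM (edgeR adjusted p = 0.00130). VGF fell from 0.981 ± 0.111 to 0.0997 ± 0.154 CPM (edgeR adjusted p = 0.0184) and FURIN from 66.0 ± 9.49 to 9.75 ± 4.64 CPM (edgeR adjusted p = 0.00133). With siMESH1#2 SCG5 was not tested, VGF was not called and FURIN rose from 174 to 187 CPM (edgeR adjusted p = 0.0421). A pair of list genes rose with siMESH1#1 from under 1 CPM. SCG3, a granin-binding protein, went from 0 reads in all siNT#1 libraries to 0.720 ± 0.107 CPM (edgeR adjusted p = 0.00111) and was at 0 throughout experiment 2. CPE, a carboxypeptidase of prohormones, rose from 0.231 ± 0.0472 to 1.57 ± 0.132 CPM (edgeR adjusted p = 0.000420), and in experiment 2 it was at 0.739 ± 0.0967 and 1.04 ± 0.0138 CPM (edgeR adjusted p = 0.0647). RAB3A, a GTPase of vesicle release, went the other way, from 0.358 ± 0.0986 CPM to 0 reads in all 3 libraries of siMESH1#1 and from 2.88 ± 0.273 to 2.12 ± 0.0742 CPM with siMESH1#2 (edgeR adjusted p = 0.0201, also lost with DESeq2 and without siNT#2 replicate 1 or 2 or siMESH1#2 replicate 2 or 3, at log2 fold changes of -0.43 to -0.37).

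The other members are taken by role. The growth-restraint and stress group had 11 members, with median ratios of 3.11 and 2.02. BTG2, an antiproliferative p53 target that recruits the mRNA deadenylase complex, was at 16.7, 21.1 and 16.6 CPM with siNT#1 and at 104, 70.4 and 116 CPM with siMESH1#1. Its siNT#2 libraries held 43.4, 46.6 and 41.8 CPM and its siMESH1#2 libraries 147, 151 and 144 CPM. Replicate 2 was the lowest of the siMESH1#1 libraries and was still more than 3 times the highest siNT#1 library. The ratios were 5.22 and 3.33, and BTG2 kept log2 fold changes of 2.91 and 1.78 after GC correction.

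CREBRF, which restrains the stress transcription factor CREB3, was at 14.1, 19.2 and 15.3 CPM with siNT#1 and 60.7, 72.2 and 54.2 CPM with siMESH1#1. In experiment 2 it went from 19.4, 20.5 and 23.3 CPM to 57.2, 59.9 and 60.0 CPM. Control levels were similar in the 2 experiments, and both siMESH1 groups spread around 60 CPM. TXNIP, an inhibitor of thioredoxin and of glucose uptake, was at 152, 159 and 153 CPM with siNT#1 and 459, 399 and 493 CPM with siMESH1#1. Its values were 246, 245 and 279 CPM with siNT#2 and 517, 494 and 515 CPM with siMESH1#2. Every siMESH1 library of TXNIP was above all 6 controls.

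Other members of this group were PDCD4, an inhibitor of the translation helicase eIF4A (ratios 5.35 and 1.96), TRIB1, a pseudokinase scaffold of the COP1 ubiquitin ligase (5.03 and 1.90), and KLHL24, a substrate adaptor of cullin 3 (6.82 and 1.85). SAT1, the rate-limiting acetyltransferase of polyamine breakdown, had ratios of 2.62 and 1.95. BMF, a BH3-only cell death gene, had 2.88 and 2.11, with 61.7, 33.5 and 81.8 CPM in the siMESH1#1 libraries, so that replicate 2 was well below the other two. SPATA18, a p53 target of mitochondrial quality control, had 3.11 and 2.02, and YPEL1 2.69 and 2.22. TP53INP1, a p53-induced gene of autophagy and cell death, was the exception in order, with a larger ratio with siMESH1#2 (2.57) than with siMESH1#1 (2.01). After GC correction 10 of the 11 remained at a log2 fold change of at least 0.81 (75% above control) with siMESH1#1, TP53INP1 being at 0.32.

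These roles overlap with those of FOXO transcription factors, which turn on genes of quiescence and stress resistance, so a list of 26 FOXO targets and quiescence genes was compared. It holds 3 of the members. Of 25 tested genes, 17 rose and 2 fell with siMESH1#1 and 17 rose and 4 fell with siMESH1#2, and the median log2 fold change was 1.13 and 0.25. These counts include the 3 members, which the rule chose as raised. With GC correction 17 rose and 4 fell with siMESH1#1, at a median of 0.87. CCNG2, a cyclin of cell cycle arrest, rose from 33.3 ± 4.22 to 189 ± 32.2 CPM with siMESH1#1 (edgeR adjusted p = 0.000291) and from 60.5 ± 5.32 to 78.3 ± 1.08 CPM with siMESH1#2 (edgeR adjusted p = 4.36e-05). FOXO4 itself rose as well, with log2 fold changes of 1.13 ± 0.261 and 0.43 ± 0.0680 (SE, edgeR adjusted p = 0.00896 and 4.85e-05). FOXO1 and FOXO3 did not rise with both. FOXO1 was at -0.065 and 0.36 (edgeR adjusted p = 0.719 and 0.00388) and FOXO3 at 0.92 and -0.13 (edgeR adjusted p = 0.00183 and 0.0427). IRS2, also of this list, fell with both (-1.24 and -0.16, edgeR adjusted p = 0.000573 and 0.00759). FOXO1, FOXO3 and IRS2 were named after their values were seen. A core list of autophagy genes was also compared. Of 32 tested genes 14 rose and 10 fell with siMESH1#1 and 14 rose and 5 fell with siMESH1#2, and none is a member. With GC correction 14 of the autophagy genes rose and 6 fell with siMESH1#1. ATG14, a subunit of the autophagy lipid kinase, rose with both (log2 fold changes 1.99 ± 0.160 and 0.57 ± 0.0743, edgeR adjusted p = 0.000337 and 6.96e-06). WIPI2 fell with both (-0.86 ± 0.239 and -0.74 ± 0.0495, edgeR adjusted p = 0.0180 and 2.17e-09), although with siMESH1#1 its sign turned to 0.28 after GC correction and the call was lost without siNT#1 replicate 1 or 3 or siMESH1#1 replicate 1 (-0.85 to -0.81).

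**Figure D2:**
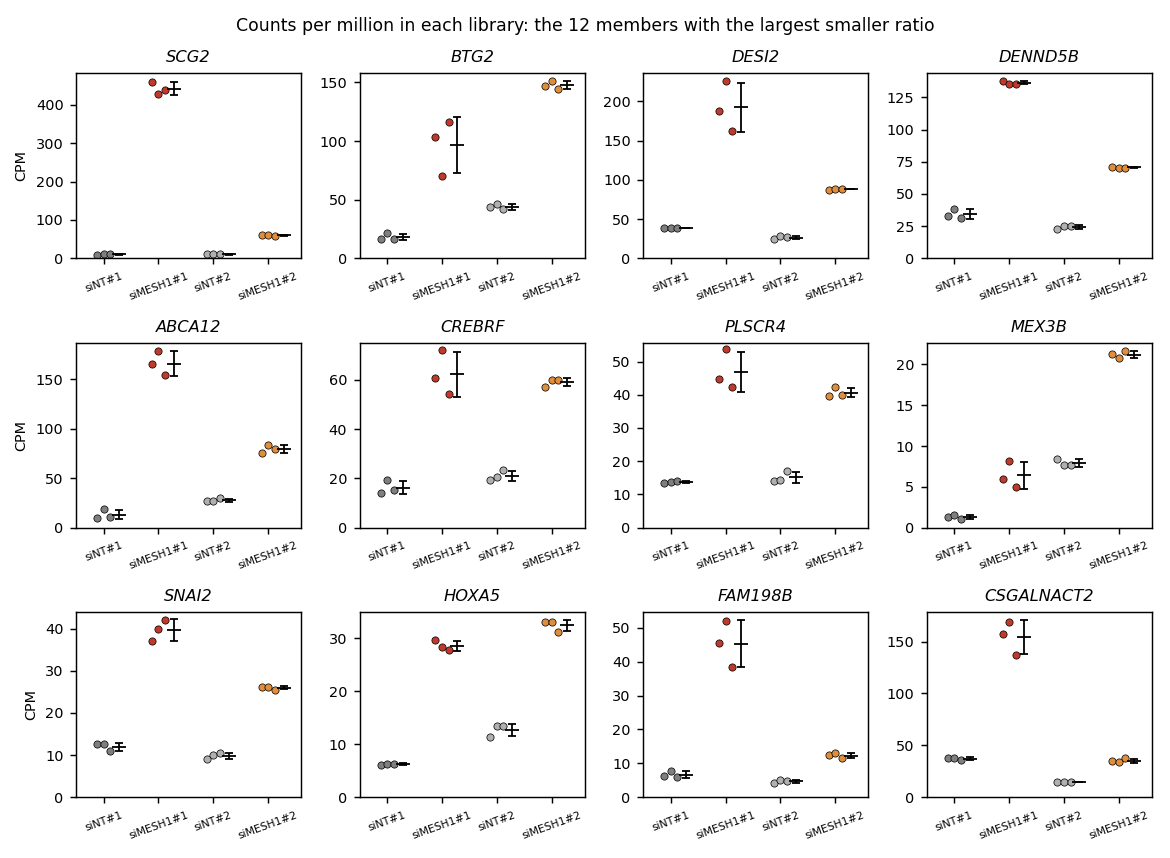
CPM in each library of the 12 members with the largest smaller ratio, with 1 point per library, 4 groups of 3 and the mean with SD beside each group, on linear axes that start at 0. In each of the 12 panels both siMESH1 groups lie wholly above their own siNT group, and in MEX3B the siNT#2 libraries lie near those of siMESH1#1.

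Secreted, matrix and Golgi genes made up 11 members including SCG2, with median ratios of 2.85 and 2.36. FAM198B, a Golgi-associated kinase, had ratios of 6.39 and 2.45. CSGALNACT2, which starts and extends chondroitin sulfate chains, was at 37.7, 37.8 and 35.5 CPM with siNT#1 and 157, 169 and 137 CPM with siMESH1#1. It was lower in experiment 2, at 14.3, 14.8 and 14.6 CPM with siNT#2 and 34.5, 34.0 and 37.5 CPM with siMESH1#2, so that its siMESH1#2 level was no higher than the control level of experiment 1. PLOD2, a lysyl hydroxylase of collagen, was among the members with the highest CPM. It was at 512, 518 and 503 CPM with siNT#1, 1031, 1257 and 825 CPM with siMESH1#1, 396, 408 and 478 CPM with siNT#2 and 746, 761 and 745 CPM with siMESH1#2. The groups of PLOD2 did not overlap, but its log2 fold change with siMESH1#1 was 0.26 after GC correction and 0.71 with siMESH1#2.

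SPARC, a matrix glycoprotein, had the largest excess of the siMESH1#2 ratio over that of siMESH1#1, an order that turned in the edgeR fits. Its CPM were 0.733, 0.738 and 0.494 with siNT#1 and 1.61, 1.85 and 1.58 with siMESH1#1, and 2.62, 2.18 and 2.85 with siNT#2 and 8.27, 7.03 and 6.87 with siMESH1#2. The ratios were 1.89 and 2.59, and at 21 to 36 reads per siNT#1 library the added 0.5 CPM lowered the first. The edgeR log2 fold changes of SPARC were 1.63 ± 0.258 and 1.54 ± 0.130 (SE). CXCL5, a chemokine that attracts neutrophils, had ratios of 2.06 and 2.44 from control levels of 199 ± 25.8 CPM and 11.6 ± 0.857 CPM. The rest of the group were EFEMP1, an extracellular fibulin (3.29 and 2.36), FAT4, a giant cadherin (2.85 and 1.90), FUCA1, a lysosomal fucosidase (3.05 and 1.78), DPY19L3, a protein C-mannosyltransferase (2.83 and 1.81), and the Golgi protein TMEM87B (1.95 and 1.83).

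Among 12 genes of transcription and chromatin the median ratios were 2.55 and 2.03. SNAI2, a repressor of epithelial genes also called Slug, was at 12.6, 12.6 and 10.9 CPM with siNT#1 and 37.0, 40.0 and 42.1 CPM with siMESH1#1. In experiment 2 it was at 9.10, 10.0 and 10.5 CPM with siNT#2 and 26.2, 26.3 and 25.5 CPM with siMESH1#2. HOXA5, a homeobox factor, moved from 6.23 ± 0.192 to 28.5 ± 0.952 CPM and from 12.7 ± 1.17 to 32.5 ± 1.06 CPM. The control levels of SNAI2 were alike in the 2 experiments, and those of HOXA5 were about 2 times apart, while the siMESH1 levels of HOXA5 came within a few CPM of each other.

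HMGA2, an architectural chromatin protein of fetal and tumour cells, had nearly equal ratios (2.37 and 2.29) at very different levels. It was at 875, 663 and 815 CPM with siNT#1 and 1892, 2107 and 1575 CPM with siMESH1#1, but at 26.5, 27.4 and 29.5 CPM with siNT#2 and 60.9, 68.5 and 63.2 CPM with siMESH1#2. The siMESH1#2 libraries were thus far below the controls of experiment 1. Its log2 fold change after GC correction was 0.52 with siMESH1#1 and 1.11 with siMESH1#2. PLAG1, a zinc finger activator of IGF2 whose gene HMGA2 can activate, had ratios of 7.77 and 1.96. The second was set by the 0.5 CPM added to a siNT#2 mean of 0.0986 CPM, and the edgeR log2 fold change of PLAG1 with siMESH1#2 was 2.78 ± 0.417 (SE). It rests on 2 to 4 reads per siNT#2 library and 18 to 22 reads per siMESH1#2 library. Of the 19 genes of a list around PLAG, HMGA and IGF, 13 were tested with siMESH1#1 (6 rose and 3 fell, 6 and 5 with library size only in place of TMM factors) and 15 with siMESH1#2 (11 rose and 1 fell), both members included. IGF2BP3, a fetal mRNA-binding protein, rose with both siRNAs, from 23.4 ± 0.504 to 47.5 ± 2.36 CPM and from 18.3 ± 1.42 to 26.1 ± 1.40 CPM (edgeR adjusted p = 0.000529 and 1.31e-05). IGFBP6, a secreted IGF-binding protein, fell with both, from 17.2 ± 1.01 to 0.216 ± 0.238 CPM and from 124 ± 8.09 to 96.3 ± 2.63 CPM (edgeR adjusted p = 0.00211 and 3.27e-05).

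The other factors were BACH1, a haem-regulated repressor (2.17 and 2.00), ONECUT2, a homeobox factor (1.99 and 2.17), ALS2CR8, a calcium-response factor (3.61 and 2.12), MBTD1, a reader of methylated histones (4.33 and 1.85), ASXL3 of the polycomb-linked ASXL family (2.28 and 1.91), BRWD3 (2.44 and 1.85) and ZNF697 (2.65 and 2.07). ID2 dimerizes with basic helix-loop-helix factors and keeps them from DNA. It had ratios of 1.76 and 1.93, and was the member with the lowest ratio between libraries of the same sequencing lane (1.24 in lane 4).

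Receptors and signalling genes were the largest group, with 13 members and the lowest median ratio with siMESH1#1 (2.37, and 1.89 with siMESH1#2). DENND5B, an exchange factor for Rab GTPases, was at 32.6, 38.3 and 31.2 CPM with siNT#1 and 138, 136 and 136 CPM with siMESH1#1, and at 22.5, 25.2 and 25.2 CPM with siNT#2 and 71.2, 70.1 and 70.4 CPM with siMESH1#2. Its siMESH1 replicates were tight in both experiments. TGFBR1, the type I receptor of TGF-beta, was at 63.9, 62.0 and 59.2 CPM with siNT#1, 129, 163 and 107 CPM with siMESH1#1, 38.6, 37.6 and 46.5 CPM with siNT#2 and 76.4, 77.2 and 76.6 CPM with siMESH1#2. ACVR2B, a type II receptor of activin, had ratios of 2.04 and 1.86, and IL1R1, the receptor of interleukin 1, 1.89 in each experiment.

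Of 31 listed genes of the TGF-beta and BMP pathway, in which type I and type II receptor kinases pass the signal to SMAD proteins, 28 were tested. With siMESH1#1 14 rose and 4 fell (11 and 6 with library size only), and with siMESH1#2 17 rose and 3 fell, the members TGFBR1 and ID2 included. The receptors ACVR1 and ACVR2A rose with both siRNAs (ACVR1 log2 fold changes 1.04 ± 0.134 and 0.54 ± 0.0578, edgeR adjusted p = 0.00111 and 7.75e-07, ACVR2A 1.28 ± 0.193 and 0.63 ± 0.0934, adjusted p = 0.00186 and 2.81e-05). After GC correction the log2 fold change of TGFBR1 with siMESH1#1 was 0.38, against 0.81 with siMESH1#2.

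PTPRJ, a receptor tyrosine phosphatase that opposes growth factor signals, was at 300.5 ± 7.65 CPM with siNT#1 and 711 ± 84.4 CPM with siMESH1#1, and at 223 ± 9.16 and 438 ± 4.20 CPM in experiment 2. INPP5A, which dephosphorylates the second messenger inositol trisphosphate, had ratios of 1.77 and 2.28, and its log2 fold change with siMESH1#1 went up to 2.01 after GC correction. MAPK6, the atypical kinase ERK3, had 1.94 and 1.754, and its log2 fold change with siMESH1#1 went down to 0.22. WASF1, a driver of actin branching, had 3.83 and 1.752. The others were RP2, a partner of the ciliary GTPase ARL3 (2.34 and 2.16), PAG1, an adaptor of the kinase CSK (2.43 and 2.00), PTCHD4 (3.79 and 1.89), LURAP1L (3.57 and 1.87) and SH3D19 (2.79 and 1.79). The EGF family list, of ligands and receptors, held no member. Of its genes 3 of 9 tested rose and 4 fell with siMESH1#1 (1 and 4 with GC correction), and 3 of 10 rose and 1 fell with siMESH1#2 (3 and 0 with DESeq2). ERRFI1, a feedback inhibitor of the EGF receptor, rose with both (0.72 ± 0.103 and 0.46 ± 0.0600, edgeR adjusted p = 0.00156 and 7.21e-06), but its log2 fold change with siMESH1#1 was 0.031 after GC correction.

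Transport and membrane genes formed 7 members, with median ratios of 3.31 and 1.92. ABCA12, a lipid transporter known from the skin barrier, was at 10.2, 18.5 and 10.8 CPM with siNT#1 and 165, 178 and 154 CPM with siMESH1#1. In experiment 2 it was at 27.1, 26.8 and 29.5 CPM with siNT#2 and 75.8, 83.1 and 79.3 CPM with siMESH1#2. The ratio of 12.2 with siMESH1#1 was the second largest of the 68. PLSCR4, a phospholipid scramblase, had control levels of 13.8 ± 0.237 and 15.2 ± 1.62 CPM and siMESH1 levels of 46.9 ± 5.94 and 40.7 ± 1.43 CPM, so that both experiments gave nearly the same pair of levels. The rest were the phospholipid flippase ATP8B1 (3.49 and 2.02), the export pump ABCC2 (2.00 and 1.92), the sodium channel SCN3A (3.80 and 1.86), the phosphodiesterase GPCPD1 of choline lipid breakdown (3.18 and 1.78) and EFHA2, a regulator of mitochondrial calcium uptake (1.97 and 1.88).

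Non-coding RNAs and RNA-binding genes formed a group of 8, with median ratios of 3.46 and 1.89. MALAT1, the long non-coding RNA of nuclear speckles, was at 135, 175 and 133 CPM with siNT#1 and 503, 680 and 457 CPM with siMESH1#1. In experiment 2 it was at 1002, 871 and 923 CPM with siNT#2 and 1406, 1736 and 2059 CPM with siMESH1#2. NEAT1, the scaffold of paraspeckles, was at 850, 1066 and 816 CPM with siNT#1, 1758, 1713 and 1708 CPM with siMESH1#1, 1186, 1038 and 863 CPM with siNT#2 and 1719, 1880 and 2665 CPM with siMESH1#2. The siNT#2 level of MALAT1 was thus above its siMESH1#1 level. Replicate 3 of siMESH1#2 was the highest for both of these RNAs, and the spread of NEAT1 in that group was 506 CPM (SD, n = 3).

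MEX3B, an RNA-binding ubiquitin ligase, was at 1.36, 1.57 and 1.06 CPM with siNT#1 and 5.99, 8.16 and 5.04 CPM with siMESH1#1, and at 8.47, 7.71 and 7.66 CPM with siNT#2 and 21.3, 20.8 and 21.6 CPM with siMESH1#2. With the highest GC content among the members (55.9%), it had the second largest log2 fold change with siMESH1#1 after GC correction (4.48). AGO4, an Argonaute of small RNA silencing, had ratios of 3.00 and 1.76, and RBMS3 2.53 and 1.80. The antisense RNAs THAP9-AS1 (4.14 and 1.93) and ADAMTS9-AS2 (3.59 and 1.82) depend on strand-aware counting of a stranded library, and MGC16121 (3.32 and 2.00) had no match in the annotation used.

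Because MALAT1 and NEAT1 lie in or beside nuclear speckles, where splicing factors are stored, 39 genes of speckles and SR-rich splicing factors were compared. Of 37 tested, 25 rose and 7 fell with siMESH1#1 and 19 rose and 8 fell with siMESH1#2, both members included. With GC correction the counts for siMESH1#1 were 17 and 13, and with library size only 18 and 12. CLK1, a kinase of SR proteins, rose from 46.2 ± 2.42 to 87.2 ± 14.2 CPM and from 26.1 ± 0.352 to 41.4 ± 2.36 CPM (edgeR adjusted p = 0.00182 and 9.63e-08). FAM133B rose as well (log2 fold changes 2.04 ± 0.291 and 2.27 ± 0.514, edgeR adjusted p = 0.00154 and 0.00134), but it was at 0.113 ± 0.0852 CPM with siNT#2 and has close copies that could split its reads.

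A last 6 members had roles outside these groups. DESI2, a deSUMOylating isopeptidase, was at 39.0, 39.0 and 38.7 CPM with siNT#1 and 188, 226 and 163 CPM with siMESH1#1, and at 23.9, 27.8 and 27.4 CPM with siNT#2 and 87.7, 88.3 and 88.3 CPM with siMESH1#2. Its ratios of 4.89 and 3.30 made it the third by the smaller ratio. WDR63, a dynein intermediate chain of cilia, had a ratio of 8.57 with siMESH1#1 and 1.76 with siMESH1#2, from fewer than 2 CPM in every control library. SMIM15, a small membrane protein, had 8.82 and 2.34, KPNA5, an importin, 3.32 and 2.20, C12orf76 1.89 and 1.86, and ST13, a cofactor of HSP70 with several pseudogenes, 2.88 and 1.80.

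**Figure D3:**
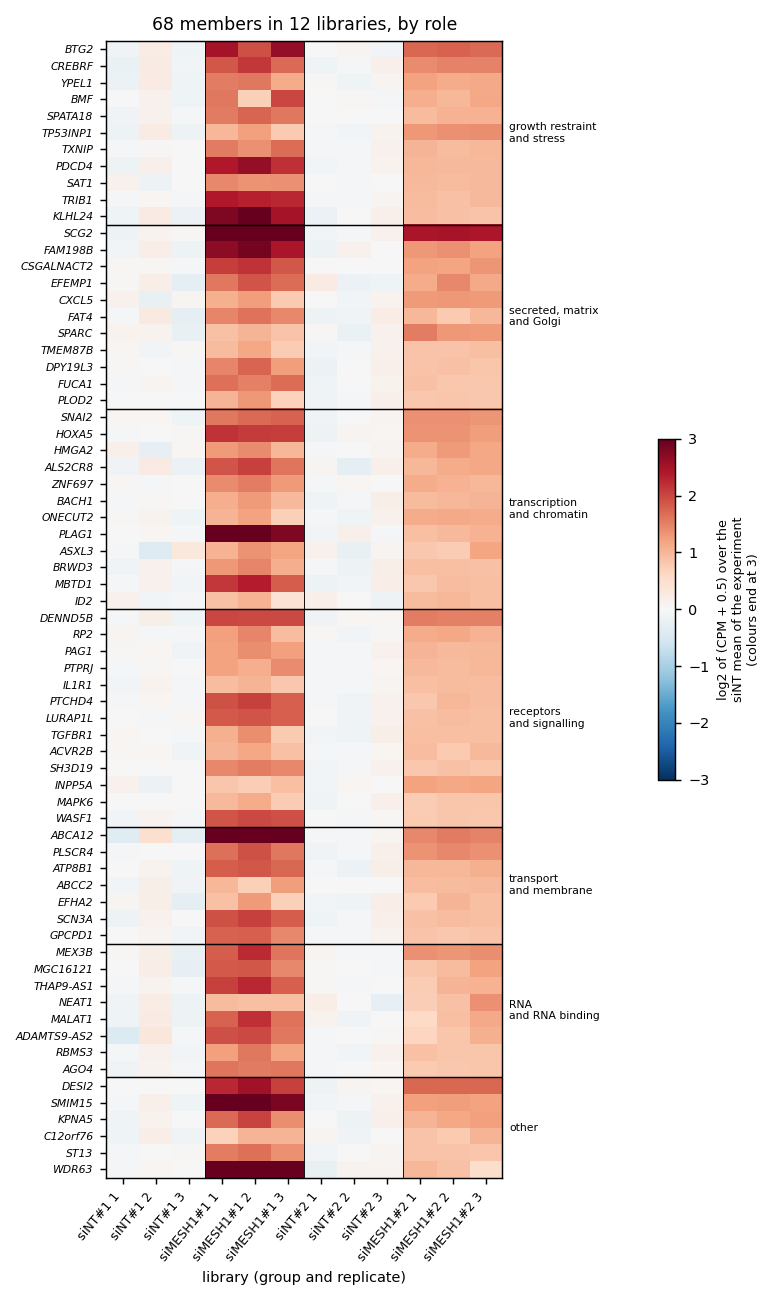
All 68 members (rows, grouped by role and sorted by the smaller ratio) in the 12 libraries (columns), coloured by the log2 of CPM + 0.5 over the siNT mean of the same experiment, with colours ending at 3. Control columns stay pale, the 3 siMESH1#2 columns are alike, and siMESH1#1 columns are darkest in SCG2, ABCA12, SMIM15, WDR63 and PLAG1.

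Leaving out any 1 of the 12 libraries kept 61 to 68 of the members. Set against the siNT mean of their experiment, 67, 65 and 59 of the 68 were at least 75% higher in the 3 siMESH1#1 libraries and 58, 64 and 66 in those of siMESH1#2. The libraries of experiment 1 were spread over lanes 4 to 7 and those of experiment 2 shared lane 2. Within lane 4 the median ratio was 2.90 and within lane 6 it was 3.19, each from 1 library a side, and all 68 ratios were above 1 in both lanes. The same libraries set the ratios that chose the members. The counts in this paragraph are therefore a description of evenness between libraries, with no test. Lane and siRNA cannot be told apart in the lanes that held 1 group only.

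Control levels entered the rule as the denominator of each ratio, so they are given as a description. The siNT means of the 2 experiments were more than 4-fold apart for 4 members (5.88%) and for 12.2% of genes that could be members. The 4 were HMGA2, 27.7 times higher with siNT#1, CXCL5, 16.4 times higher with siNT#1, MALAT1, 6.29 times higher with siNT#2, and MEX3B, 4.61 times higher with siNT#2. Both controls carry the same non-targeting siRNA by name. The count files of the 2 experiments also differ in the reads set aside. Reads of low alignment quality made up 6.31% to 7.59% in experiment 1 and 0 in experiment 2. Reads without a unique alignment made up 9.98% to 12.6% and 23.6% to 27.1%. The part of this difference in levels compared between the experiments was not tested.

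**Figure D4:**
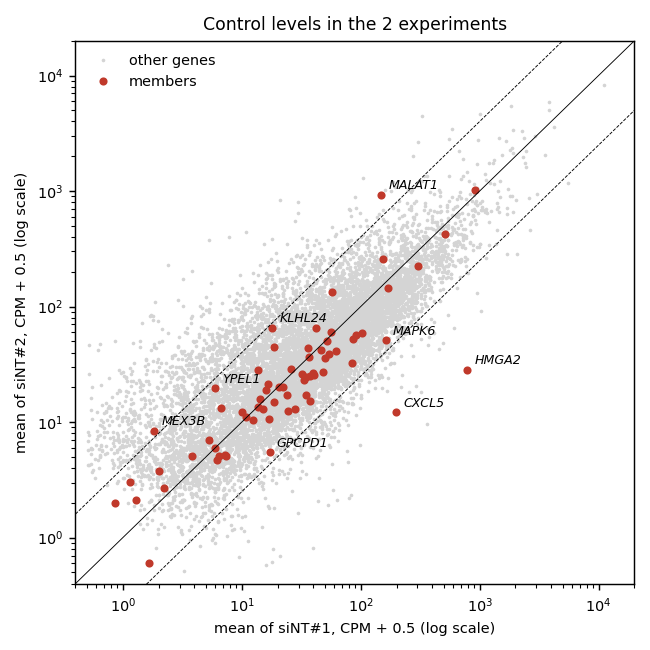
Mean CPM + 0.5 with siNT#1 (x axis) and with siNT#2 (y axis), both on log scales, for the 68 members (red) and the other genes that could be members (grey). The solid line marks equal levels and the dashed lines a 4-fold difference, and HMGA2, CXCL5, MALAT1 and MEX3B lie outside them.

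The members were poorer in GC and longer than other expressed genes. Their median transcript GC content was 41.8% (67 matched, from 34.4% to 55.9%), against 47.9% over 11013 matched genes that could be members, and 26 of the 67 (38.8%) were under 40%, against 16.3%. No member lay in the 2 GC classes richest in GC. The 3′UTR had a median length of 2475 bases in 63 members and 1458.5 bases over all, and the exon length 6388 and 5304 bases. The median log2 ratio of all genes with siMESH1#1 ran from 0.80 in the lowest GC class to -2.67 in the highest, and with siMESH1#2 from 0.12 to -0.094, so a GC-poor gene passed the siMESH1#1 ratio more readily than a GC-rich one.

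A correction that removes this dependence from each library left all 67 members with a value above 0 with both siRNAs. The rule had chosen them on the uncorrected ratios of the same libraries, so nothing is read from that sign. With siMESH1#1 the median log2 fold change of the members went from 1.87 to 1.25, and 49 stayed at 0.81 or more, as did 19% of all genes that could be members. With siMESH1#2 the median was 1.02 before and 0.98 after, and 56 stayed at 0.81 or more, against 1.37% of all. The lowest corrected values with siMESH1#1 were those of EFHA2 (0.20), MAPK6 (0.22) and PLOD2 (0.26). Applied to the corrected values, the rule found 59 genes, of which 39 are members (57.4% of the 68 and 66.1% of the 59). With libraries scaled by their totals and not by TMM, the median log2 fold change of all tested genes moved from -0.047 to -0.31 with siMESH1#1 and from 0.0053 to -0.0056 with siMESH1#2.

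**Figure D5:**
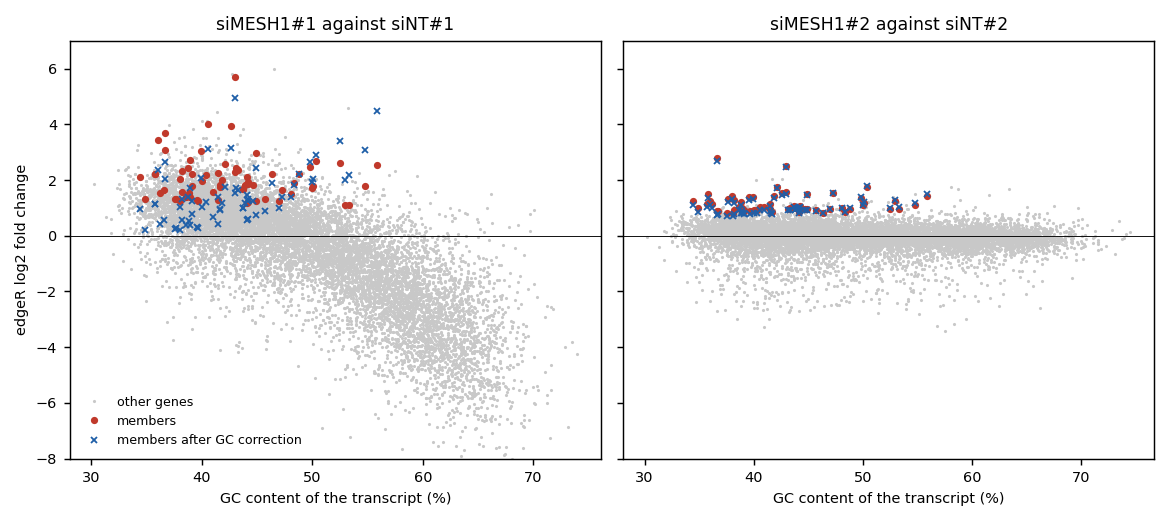
The edgeR log2 fold change against the GC content of the transcript in percent, for siMESH1#1 (left) and siMESH1#2 (right), with members as red circles, the same members after GC correction as blue crosses and other genes in grey. With siMESH1#1 other genes slope down with GC content and most members at low GC move toward 0 after correction, whereas with siMESH1#2 circles and crosses nearly coincide.

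Matches to the siRNA seeds shown above were counted in the 3′UTRs. The 7 bases of siMESH1#1 occurred in 16 of 63 member 3′UTRs (25.4%) and in 17.6% of all 10667 3′UTRs of genes that could be members, at 0.10 and 0.104 sites per kb, and those of siMESH1#2 in 1 of 63 (1.59%, ZNF697) and in 6.65%, at 0.0050 and 0.0337 sites per kb. Per kb, the members thus held no more sites than other genes for either siRNA. They were chosen as raised, so the counts do not cover transcripts that a seed may lower. Whether such transcripts had a part in the members' values was not tested. SCG2, BTG2 and DESI2 had none.

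Promoters, from 250 bases before to 50 after the start of transcription, were held in RefSeq (GRCh38.p14) for 47 members and 9122 genes that could be members. Both strands were searched for fixed letters. The cAMP response element TGACGTCA was found in 2 members (4.26%, against 3.30% of all), the AP-1 site TGANTCA in 1 (2.13% and 4.28%), the amino acid response element TGATGCAA in 0 (0.406% of all) and the FOXO site GTAAACA in 3 (6.38% and 2.26%). TATAAA occurred in 6 (12.8% and 4.86%), the GC box GGGCGG in 28 (59.6% and 71.7%) and CCAAT in 21 (44.7% and 37.1%). The TATAAA matches of the members began at -239, -236, -233, -201, -75, 4 and 23 from the start of transcription. A match describes the letters only. The windows of 30 bases below show the matches, in capitals, of stress-linked motifs in members described above, written along the strand of the gene.
TXNIP, FOXO site: tcgggctcctgGTAAACAaggaccgggcag
THAP9-AS1, FOXO site: gctattcagagGTAAACActgggcgggaag
ADAMTS9-AS2, FOXO site: ggagtaaaggcTGTTTACaaacttgacgta
WDR63, cAMP response element: ttcgcgttgagTGACGTCAcatagtggcaa
ASXL3, cAMP response element: gccattccccgTGACGTCAgagtgtattgt
KLHL24, AP-1 site: caaggtgttttTGAGTCAgcagccctttgg
In ADAMTS9-AS2 the FOXO letters are on the other strand. The windows lie at chr1:145996685-145996714 and chr4:82901064-82901093 (minus strand), and at chr3:64684852-64684881, chr1:85062192-85062221, chr18:33578201-33578230 and chr3:183635409-183635438 (plus strand).

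The list of CREB and AP-1 early response genes, which also holds factors such as CREB1 and CRTC1, held no member. Promoter sites were not counted for this list. Of 30 listed, 25 were tested with siMESH1#1 (9 rose and 8 fell) and 27 with siMESH1#2 (10 rose and 3 fell). The siMESH1#1 split depended on the scaling, with 12 higher and 3 lower after GC correction, 5 and 10 with library size only and 7 and 10 with DESeq2, and the median log2 fold change of the list moved from -0.051 to 0.73 with GC correction. ATF3, a stress-induced factor of this family, rose with both siRNAs, from 30.9 ± 3.70 to 60.3 ± 17.2 CPM and from 9.08 ± 0.919 to 12.7 ± 0.292 CPM (edgeR adjusted p = 0.00252 and 0.000184). JUND rose from 25.5 ± 4.86 to 36.6 ± 6.63 CPM and from 259.6 ± 16.9 to 336 ± 4.67 CPM (edgeR adjusted p = 0.0119 and 5.39e-06), the first call being lost when libraries were scaled by size alone.

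The Wnt, Notch and axon guidance lists, which pass signals between neighbouring cells, held no member either. In the Wnt list 11 of 28 tested genes rose and 12 fell with siMESH1#1 (13 and 8 with GC correction, 9 and 15 with library size only), and 14 of 29 rose and 12 fell with siMESH1#2. FZD4, a Wnt receptor, rose with both (0.94 ± 0.208 and 0.89 ± 0.0877, edgeR adjusted p = 0.00765 and 2.49e-07), and FZD8 fell with both (-1.82 ± 0.258 and -0.84 ± 0.0828, adjusted p = 0.00150 and 2.56e-07), although with siMESH1#1 its sign turned to 2.00 after GC correction. In the Notch list 7 of 21 rose and 8 fell with siMESH1#1 (12 and 3 with GC correction, 4 and 9 with library size only), and 8 of 21 rose and 3 fell with siMESH1#2. HES1, a direct Notch target, rose from 11.7 ± 0.952 to 18.1 ± 0.874 CPM and from 19.3 ± 1.27 to 35.3 ± 0.718 CPM (edgeR adjusted p = 0.00236 and 9.29e-09), and MFNG, a Notch-modifying glycosyltransferase, fell with both (-4.79 ± 0.799 and -0.49 ± 0.122, adjusted p = 0.00268 and 0.00276). In axon guidance 4 of 30 rose and 17 fell with siMESH1#1 (7 and 11 with GC correction, where the median log2 fold change went from -0.90 to -0.25), and 12 of 28 rose and 9 fell with siMESH1#2. NRP1, the co-receptor of semaphorins and VEGF, fell from 265 ± 5.20 to 60.9 ± 6.00 CPM and from 681 ± 22.0 to 227 ± 3.18 CPM (edgeR adjusted p = 0.000178 and 3.74e-14). PLXNA1 fell with both as well (-2.06 ± 0.181 and -0.65 ± 0.0559, adjusted p = 0.000395 and 4.78e-08), with a sign that turned to 1.31 for siMESH1#1 after GC correction. In 1 model of all 4 groups, which share 1 estimate of the spread, the siMESH1#2 calls of CHGB, RAB3A, ATF3, CCNG2, FOXO4, IGFBP6, JUND and MFNG were lost, with log2 fold changes that kept their sign.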

How the data were processed

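RNA of 12 RCC4 samples was made into stranded mRNA libraries and sequenced as 50-base single-end reads. The deposited values are raw counts of reads for each gene, with no scaling. Per the labels, the authors used FastQC, HISAT2, HTSeq and DESeq2 with build hg19, with versions not given in the sources used here. Their DESeq2 tables hold their own comparisons (mean normalized counts, log2 fold changes and p-values) and were not used. Rows that name no gene (38.9% to 49.3% of reads) entered neither the totals nor the tests. Groups came from the labels, and every sample column was used.

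CPM were computed over gene rows. The test was that of edgeR 4.0.16, run in R 4.3.3 (filterByExpr, TMM, quasi-likelihood F test) within each experiment, 3 libraries against 3, with Benjamini-Hochberg adjustment over all genes tested (13395 and 13568) and a threshold of 0.05. Errors are SD of 3 libraries or SE of the fit. In simulated data with 200 genes changed by a median log2 size of 1.00, the steps recovered 15 with 1 false call at the spread of experiment 1 (13316 genes) and 191 with 7 false calls at that of experiment 2 (13572 genes). The simulation gave all genes and both groups of an experiment the same common spread, and no dependence on GC content. The data of experiment 1 differ in both, so these counts do not measure the errors among the calls reported here. At the depths given above, a gene of few CPM rests on few reads.

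The members, the 11 gene lists and the roles were chosen with earlier results of these data known. Besides SCG2 and HDDC3, genes were named by rule: the 12 members with the largest smaller ratio, the 6 with the highest mean CPM, the 3 at each end of the difference between the log2 ratios, the 3 on each side of the threshold, list members, and of each list at most 2 other genes called in the same direction with both siRNAs. The remaining members are given by their ratios. Gene positions, GC content (longest transcript) and 3′UTRs came from GENCODE 29 on GRCh38, matched by symbol (21257 of 23710 by name, 1056 by an older symbol, 1397 not matched), while the counts were made on hg19. The GC correction subtracted from each library a lowess curve (span 0.3, prior count 1) of log2 counts on GC content before TMM was recomputed.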

Additional observations from a re-analysis of the deposited data

How the results depend on the processing

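The number of members followed the ratio set: 240 genes passed at 1.5 and 26 at 2, in place of 68. It was 52 to 92 with other pseudocounts (2 and 0.1 CPM), 72 and 62 with a minimum mean of 1 or 5 CPM, 80 with TMM-scaled CPM, 73 with lanes 4 and 6 only, and 63 to 90 when any 1 library was left out (90 without siNT#2 replicate 3). In 1 model of all 4 groups, the genes called higher and lower with siMESH1#2 dropped from 3613 and 3622 to 1138 and 1444, where the wider spread of experiment 1 is shared. The counts of genes called moved by less than 1.5 times under every other alternative run. Replicate numbers were not used as pairs in the main fits. Same-numbered deviations correlated at -0.11, 0.33 and 0.20 in experiment 1, and differently numbered ones at -0.36 to 0.27. In experiment 2 the values were -0.10, 0.032 and -0.095 for the same number and -0.11 to 0.19 for different numbers. These few correlations do not settle whether the libraries were paired. With the replicate block, 4479 genes were higher and 4794 lower with siMESH1#1, and 3461 and 3511 with siMESH1#2. Of the 701 alternative values of the 27 named members, 105 moved by more than 1 SE of the main fit. All 701 stayed above 0, but the rule had chosen these genes as raised in the same libraries, so nothing is read from that sign. Among other named genes, the sign with siMESH1#1 turned under GC correction for FZD8 (2.00), PLXNA1 (1.31) and WIPI2 (0.28), and 23 of 619 alternative values lost their call. The cause was not tested. Depth limits PLAG1 in experiment 2 most.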
